A study of Mus musculus with 10 samples.

Results

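The genes described here are 45 genes of the cell division cycle, measured on arrays in primary mouse hepatocytes after knockdown of Wdr5 or Kat2b. They come from a list of 46 symbols, and each is represented by the probe set that carries its symbol alone, or, where a gene has 2 such probe sets, by the one with the highest mean over the 10 libraries. Ccnb1 is not analysed here. Of the 45, 28 act in mitosis, 13 in DNA replication and 4 at the passage from G1 into S phase. All 45 were among the 11480 genes tested, out of 16401 genes with a probe set of their own.

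The cell division cycle is driven by cyclins and their kinases. D-type and E-type cyclins release E2F factors from the retinoblastoma family in G1, E2F then raises the genes that copy DNA, and a later wave of transcription, driven by the MYB-MuvB complex and FOXM1, raises the genes for the spindle, the kinetochore and cytokinesis. Hepatocytes of the adult liver are mostly out of the cycle and can re-enter it, as after partial hepatectomy.

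The study measured total RNA of primary hepatocytes of 10-week-old male C57BL6/J mice on Affymetrix arrays in 10 libraries, each a pool of 3 culture dishes. All cells carried an adenovirus given 72 h before treatment, at 2 to 4 plaque-forming units per cell. WDR5 is a core subunit of histone lysine methyltransferase complexes and KAT2B a histone acetyltransferase, and glucagon is a pancreatic hormone of fasting that acts on hepatocytes through cyclic AMP. The series title puts the question as what depletion of either protein does to expression in hepatocytes. With the hairpin against Wdr5, the shWDR5 glucagon group (100 nM glucagon for 90 min) holds libraries A and B and the shWDR5 PBS group (phosphate-buffered saline for 90 min) holds library A. With the hairpin against Kat2b, shKAT2B glucagon holds A and B and shKAT2B PBS holds A. With the non-specific control hairpin, shNS glucagon and shNS PBS each hold A and B. The labels do not say whether A and B came from separate animals, so the spread behind the p-values is that between these libraries and may be technical. In whole cultures, fewer cells of a kind and less RNA per cell cannot be told apart.

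Library medians lay between 282.1 and 298.2 on the linear intensity scale. Wdr5 fell by 1.74 ± 0.07 on the log2 scale in shWDR5 (adjusted p = 1.33e-05) and Kat2b fell by 2.70 ± 0.09 in shKAT2B (adjusted p = 2.75e-06), in limma's additive fit of hairpin and treatment with Benjamini-Hochberg adjustment over all genes tested. All adjusted p given here come from limma with that adjustment, a gene is called at an adjusted p below 0.05, and errors after ± are standard errors of the fit. Among the libraries, 4 stood apart. The leading component of what hairpin and treatment left over, computed over 11328 genes outside the cell cycle lists, held 77.5 percent of the residual variance and split the libraries into 2 sets by its sign. The first set holds shWDR5 glucagon A, shKAT2B glucagon A, shNS glucagon A and shNS PBS A, and the second set holds the 3 glucagon B libraries, shNS PBS B and both lone PBS A libraries. The lone libraries lay nearest the cut, with component values of 0.06 for shWDR5 PBS A and 0.138 for shKAT2B PBS A. In the first set the nearest was shNS glucagon A at -0.22. Residuals of a hairpin's libraries cancel in this fit, so a lone library's value is tied to those of its hairpin's glucagon libraries. Its sign and its nearness to the cut are therefore not independent observations. To compare libraries of unlike treatment, each gene's shNS difference, glucagon minus PBS, was added to the lone PBS A libraries. Over all genes tested, shWDR5 PBS A so adjusted correlated at 0.9956 with shWDR5 glucagon B and at 0.9824 with shWDR5 glucagon A. The adjusted shKAT2B PBS A correlated at 0.9958 with shKAT2B glucagon B and at 0.9757 with shKAT2B glucagon A. Results on the members are therefore given with and without the letter or the set as a term. The sets were drawn from residuals of these same arrays, so p-values with the set as a term may be too small.

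The promoters of 6 called members show what most mitotic members share in sequence. They are the 6 members with the smallest p in the comparison of shWDR5 with shNS, other than Kif20a, whose promoter is not shown, and Mcm7 among them is a replication gene. Each window runs from 200 bases before to 30 bases after the transcription start in RefSeq, build GRCm38.p6, read 5′ to 3′ on the gene's own strand. Capitals mark CCAAT, the box bound by NF-Y, which reads ATTGG where it lies on the other strand, and the cell cycle genes homology region (CHR), the element bound by MuvB complexes, searched in 2 forms. The form TTTGAA, when on the other strand, is seen as TTCAAA, while the form TTCGAA looks alike on both strands. Cenpf lies at chr1:189688057-189688286 on the minus strand, Cdk1 at chr10:69352883-69353112 on the minus strand and Mcm7 at chr5:138171854-138172083 on the minus strand. Cep55 lies at chr19:38054784-38055013 on the plus strand, Depdc1a at chr3:159495233-159495462 on the plus strand and Mki67 at chr7:135716350-135716579 on the minus strand.
Cenpf: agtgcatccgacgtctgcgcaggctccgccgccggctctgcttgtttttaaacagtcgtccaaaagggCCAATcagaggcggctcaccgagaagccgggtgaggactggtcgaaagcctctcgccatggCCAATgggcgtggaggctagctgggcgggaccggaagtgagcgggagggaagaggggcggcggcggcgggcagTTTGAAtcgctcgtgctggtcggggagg
Cdk1: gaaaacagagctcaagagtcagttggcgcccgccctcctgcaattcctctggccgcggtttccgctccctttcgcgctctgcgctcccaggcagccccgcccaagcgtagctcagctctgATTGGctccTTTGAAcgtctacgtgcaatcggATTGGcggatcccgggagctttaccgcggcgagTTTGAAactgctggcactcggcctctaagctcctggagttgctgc
Mcm7: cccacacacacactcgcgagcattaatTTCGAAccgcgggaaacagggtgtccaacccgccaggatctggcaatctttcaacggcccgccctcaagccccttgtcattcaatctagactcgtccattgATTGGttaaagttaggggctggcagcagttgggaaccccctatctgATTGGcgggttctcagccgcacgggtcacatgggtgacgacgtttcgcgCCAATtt
Cep55: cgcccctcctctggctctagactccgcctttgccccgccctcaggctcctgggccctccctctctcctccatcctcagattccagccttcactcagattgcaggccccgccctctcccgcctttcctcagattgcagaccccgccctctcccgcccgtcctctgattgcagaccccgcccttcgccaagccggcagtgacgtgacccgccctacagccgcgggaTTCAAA
Depdc1a: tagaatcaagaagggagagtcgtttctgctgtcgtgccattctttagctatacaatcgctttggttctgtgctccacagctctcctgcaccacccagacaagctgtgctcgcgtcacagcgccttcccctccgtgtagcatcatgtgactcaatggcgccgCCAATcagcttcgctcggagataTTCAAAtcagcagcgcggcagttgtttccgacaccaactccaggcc
Mki67: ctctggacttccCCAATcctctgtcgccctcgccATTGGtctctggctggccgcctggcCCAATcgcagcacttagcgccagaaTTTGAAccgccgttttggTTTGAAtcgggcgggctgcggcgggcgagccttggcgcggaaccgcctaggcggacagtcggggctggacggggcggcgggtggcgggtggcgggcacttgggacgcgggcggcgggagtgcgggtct

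Over a window of 280 bases (250 before to 30 after the start), CCAAT was found on either strand in 20 of the 24 mitotic members with a promoter sequence (83.3 percent), in 8 of 11 replication members (72.7 percent) and in 36.6 percent of 27025 RefSeq promoters. CHR letters were found in 18 of the 24 mitotic members (75 percent), in 2 of 11 replication members (18.2 percent) and in 18.6 percent of all promoters. Both were present in 16 of 24 mitotic members (66.7 percent), against 7.07 percent of all promoters. The E2F letters TTTCGCGC or TTTGGCGC, on either strand, were found in 1 of 24 mitotic members (Cdk1), in 3 of 11 replication members (Mcm5, Mcm6 and Mcm7) and in 0.77 percent of all promoters. In the Mcm7 window the last letter of TTTCGCGC is also the first letter of a CCAAT match. Neither of the 2 G1/S members with a promoter sequence, of 4, held any of these letters. These matches describe letters in a window, not sites shown to be bound.

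Mitotic genes were higher in shWDR5 than in shNS hepatocytes, and replication genes differed less. Of the 45 members, 15 rose and 0 fell in shWDR5 in the fit over all 10 libraries, against 4.69 percent of all genes tested called higher and 6.17 percent called lower. The 15 comprised 13 of 28 mitotic members, 2 of 13 replication members and 0 of 4 G1/S regulators. The median log2 difference (shWDR5 minus shNS) was 0.92 over the mitotic members (0.56 to 1.92), 0.29 over the replication members (0.09 to 0.76) and 0.11 over the G1/S regulators, beside -0.01 over all genes tested. In 25 of the 45 members (19 mitotic, 5 replication, 1 G1/S) all 3 shWDR5 libraries lay above all 4 shNS libraries, as did 11.8 percent of all genes tested.

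The letters pair the libraries of the 4 groups that hold both, and the count grew when they, or the sets, were part of the fit. With the replicate block 40 members rose (11.0 percent of all genes tested were called higher), with the block in the 8 libraries of those 4 groups 35 rose (11.3 percent), and with the library set as a term 37 rose (18.8 percent). All 28 mitotic members rose in each of these 3 fits, with medians of 1.07, 0.82 and 0.76. The first of these fits sets the lone PBS A libraries beside letter A, although they lie in the second set with the B libraries. Its count and median are therefore less certain than those of the other fits. Cyclin D1 (Ccnd1), Ccne1, E2f1, Mcm2 and Pcna were not called in any of the 3. Leaving out 1 library made the count 2 where it was shWDR5 PBS A, 3 where it was shWDR5 glucagon B, 3 where it was shNS glucagon A, and 9 where it was shKAT2B PBS A or shNS PBS B, with 0.889 to 2.88 percent of all genes tested called higher in those 5 fits, and the calls of Cenpf and Cdk1 alone among the 15 held whichever of the 10 libraries was left out.

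**Figure D1:**
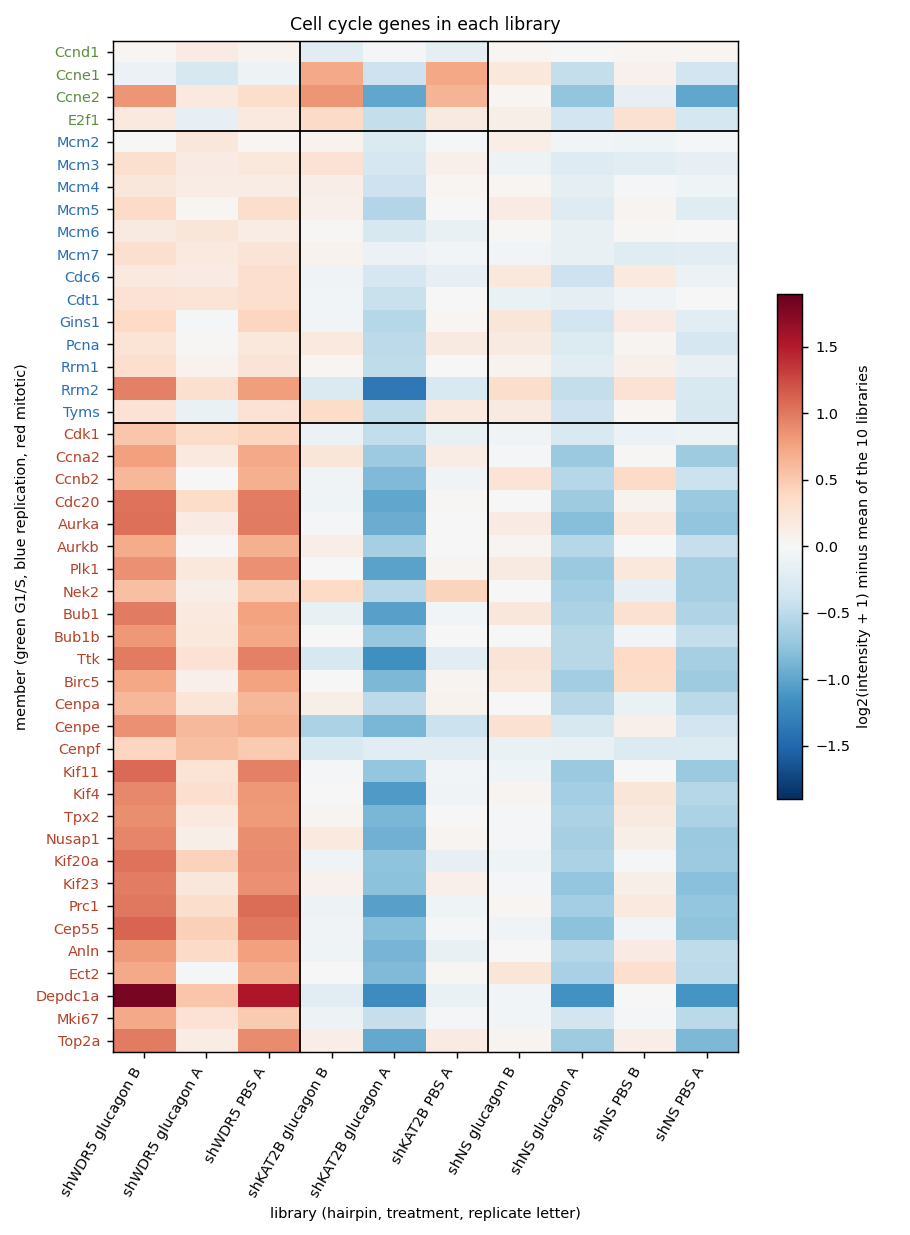
Each row is a member and each column a library, ordered shWDR5, shKAT2B, shNS from left to right. Colour gives log2(intensity + 1) minus the member's own mean over the 10 libraries, and lines part the G1/S, replication and mitotic rows and the 3 hairpins. The mitotic rows are reddest in shWDR5 glucagon B and shWDR5 PBS A and bluest in the glucagon A libraries of shKAT2B and shNS and in shNS PBS A.

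Values of single members are given as log2(intensity + 1), in shWDR5 in the order glucagon B, glucagon A, PBS A and in shNS in the order glucagon B, glucagon A, PBS B, PBS A. A level is read only against the same probe set in other libraries.

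Among the G1/S regulators, none of the 4 was called in shWDR5 (0 at an unadjusted p below 0.05 either, limma, against 2956 of the 11480 genes tested). Ccnd1, the D-type cyclin that answers growth signals, stood at 11.56, 11.67 and 11.59 in shWDR5, against 11.56, 11.52, 11.55 and 11.56 in shNS. E2f1, a transcription factor that raises replication genes, stood at 9.80, 9.45 and 9.79 in shWDR5, against 9.72, 9.24, 9.90 and 9.27 in shNS. Both overlapped between the hairpins, with differences of 0.06 ± 0.06 and 0.17 ± 0.22. Of the E-type cyclins, which start S phase with CDK2, Ccne2 had 10.41, 9.75 and 9.91 in shWDR5, against 9.60, 8.82, 9.42 and 8.58 in shNS. These Ccne2 values did not overlap, yet the difference of 0.93 ± 0.44 did not pass (adjusted p = 0.228), and with the library set as a term it was 0.71 ± 0.19 (adjusted p = 0.0108). Ccne1, the other E-type cyclin, had 10.20, 10.01 and 10.22 in shWDR5, against 10.51, 9.86, 10.39 and 9.95 in shNS. The Ccne1 values overlapped, with a difference of -0.003 ± 0.272 (adjusted p = 0.997).

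Among the replication members, Mcm7 and Cdt1 rose. Mcm7, a subunit of the MCM helicase that unwinds origins, had 11.09, 10.97 and 11.03 in shWDR5, against 10.74, 10.65, 10.56 and 10.59 in shNS, a difference of 0.38 ± 0.06 (adjusted p = 0.00817). Cdt1, which loads that helicase, had 9.89, 9.87 and 9.93 in shWDR5, against 9.49, 9.42, 9.55 and 9.60 in shNS, a difference of 0.40 ± 0.09 (adjusted p = 0.0252). Both were level across the shWDR5 libraries and did not overlap with shNS. The call of Mcm7 ended without shWDR5 PBS A (adjusted p = 0.0726) and that of Cdt1 without any 1 of 5 libraries (up to 0.0971).

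Other helicase and fork genes moved less. Mcm2, another helicase subunit, had 10.35, 10.56 and 10.37 in shWDR5, against 10.46, 10.29, 10.26 and 10.32 in shNS (difference 0.09 ± 0.10). Pcna, the sliding clamp of DNA polymerase, had 12.31, 12.06 and 12.25 in shWDR5, against 12.22, 11.79, 12.09 and 11.72 in shNS (difference 0.26 ± 0.18). Both overlapped and neither was called. Pcna is on 2 probe sets, and the mean of both gave the same difference, 0.26, but the array may not part it from near-identical copies, so its values are uncertain. Rrm2, the regulated subunit of ribonucleotide reductase, which makes deoxynucleotides, differed by 0.76 ± 0.30 (adjusted p = 0.154), the widest of the replication members.

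Of the mitotic kinase, its cyclins and its target complex, Cdk1 and Cdc20 rose. Cdk1, the kinase that drives entry into mitosis, had 11.38, 11.21 and 11.26 in shWDR5, against 10.78, 10.56, 10.74 and 10.76 in shNS, a difference of 0.58 ± 0.10 (adjusted p = 0.00809). Its 3 shWDR5 libraries all lay above the 4 shNS libraries. Cdc20, which switches on the anaphase-promoting complex, had 10.73, 10.04 and 10.66 in shWDR5, against 9.70, 9.02, 9.76 and 8.98 in shNS, a difference of 1.15 ± 0.30 (adjusted p = 0.0405). Ccnb2, a B-type cyclin and partner of CDK1, had 12.29, 11.67 and 12.34 in shWDR5, against 11.92, 11.12, 12.03 and 11.25 in shNS. The Ccnb2 groups overlapped through shWDR5 glucagon A (difference 0.56 ± 0.28, adjusted p = 0.243), and with the library set as a term it rose by 0.41 ± 0.05 (adjusted p = 2.83e-05). Ccna2, the other cyclin measured here, did not overlap between the hairpins, yet was not called (0.94 ± 0.28, adjusted p = 0.0609).

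Of the 8 mitotic and checkpoint kinase genes with survivin, 1 was called. All 8 had an unadjusted p below 0.05 (limma), as had 2956 of the 11480 genes tested. Bub1b, whose product BubR1 holds anaphase back until kinetochores are attached, had 9.77, 9.14 and 9.68 in shWDR5, against 8.95, 8.41, 8.89 and 8.48 in shNS (0.87 ± 0.23, adjusted p = 0.0408). Plk1, a kinase of centrosome maturation and mitotic exit, had 11.51, 10.85 and 11.51 in shWDR5, against 10.81, 9.94, 10.85 and 10.01 in shNS (0.93 ± 0.32, adjusted p = 0.105). The lowest shWDR5 library, glucagon A, lay just above the shNS maximum for Bub1b and level with it at 2 decimals for Plk1. The other 6 (Aurka, Aurkb, Nek2, Bub1, Ttk and Birc5) had differences of 0.73 to 1.08 and were not called in the additive fit.

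All 3 centromere and kinetochore members rose. Cenpf, a large protein of the outer kinetochore, had 7.99, 8.15 and 8.07 in shWDR5, against 7.45, 7.43, 7.31 and 7.32 in shNS, a difference of 0.68 ± 0.07 (adjusted p = 0.00175, the smallest of the members). Cenpe, the kinetochore motor that aligns chromosomes, had 9.28, 9.02 and 9.09 in shWDR5, against 8.70, 8.11, 8.51 and 8.05 in shNS (0.79 ± 0.18, adjusted p = 0.0257). Cenpa, the histone H3 variant of centromeres, had 10.27, 9.86 and 10.26 in shWDR5, against 9.62, 9.11, 9.51 and 9.12 in shNS (0.81 ± 0.19, adjusted p = 0.0301). None of the 3 overlapped between the hairpins, and Cenpf was the only mitotic member whose glucagon A library was the highest of shWDR5.

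Of the 4 spindle members, Kif11 was called. Kif11, the motor that pushes spindle poles apart, had 10.60, 9.79 and 10.48 in shWDR5, against 9.45, 8.82, 9.52 and 8.82 in shNS (1.17 ± 0.27, adjusted p = 0.0275). Nusap1, which bundles spindle microtubules, had 10.76, 9.94 and 10.72 in shWDR5, against 9.80, 9.19, 9.94 and 9.13 in shNS (1.0 ± 0.32, adjusted p = 0.0846). In both, shWDR5 glucagon A stood nearest to shNS. Tpx2 and Kif4 had differences of 0.93 ± 0.28 and 0.95 ± 0.30 and were not called.

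The cytokinesis members had the widest median difference of the role groups, 1.13, and 5 of 7 rose. Depdc1a, a DEP domain gene, had 9.98, 8.70 and 9.72 in shWDR5, against 8.13, 7.03, 8.18 and 7.06 in shNS, a difference of 1.92 ± 0.42 (adjusted p = 0.0225), or 3.78-fold. Depdc1a is on 2 probe sets, and these values are those of the probe set with the higher mean alone. Cep55, a midbody protein needed for abscission, had 9.88, 9.23 and 9.77 in shWDR5, against 8.70, 8.0, 8.72 and 8.02 in shNS (1.30 ± 0.27, adjusted p = 0.0185). Neither overlapped between the hairpins. Kif20a, the kinesin that brings Aurora B to the central spindle, had 11.17, 10.57 and 11.04 in shWDR5, against 10.06, 9.53, 10.12 and 9.45 in shNS (1.16 ± 0.24, adjusted p = 0.0179). Prc1, which crosslinks the central spindle, had 10.54, 9.87 and 10.60 in shWDR5, against 9.58, 8.89, 9.72 and 8.80 in shNS (1.13 ± 0.31, adjusted p = 0.0494). Both lay higher in every shWDR5 library than in any shNS library.

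Anln and Ect2 serve the contractile ring. Anln, which anchors it, had 11.35, 10.90 and 11.32 in shWDR5, against 10.55, 10.00, 10.70 and 10.06 in shNS (0.90 ± 0.23, adjusted p = 0.0426). Ect2, the exchange factor that activates RhoA there, had 11.52, 10.77 and 11.50 in shWDR5, against 11.03, 10.19, 11.12 and 10.30 in shNS (0.65 ± 0.30, adjusted p = 0.22). Anln did not overlap and Ect2 did, again through shWDR5 glucagon A.

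Of the 2 genes of chromosome structure, the proliferation marker Mki67 rose. Mki67, whose product coats mitotic chromosomes, had 10.37, 9.92 and 10.14 in shWDR5, against 9.60, 9.30, 9.62 and 9.13 in shNS (0.74 ± 0.16, adjusted p = 0.0237). Top2a, the topoisomerase that untangles sister chromatids, had 10.83, 9.98 and 10.74 in shWDR5, against 9.89, 9.17, 9.96 and 8.99 in shNS (1.05 ± 0.35, adjusted p = 0.0961). Both lay higher in every shWDR5 library than in any shNS library. Among the called members other than Cenpf, Cdk1, Mcm7 and Cdt1, the call ended without any 1 of 3 to 8 libraries, always including shNS glucagon A, shWDR5 PBS A and shWDR5 glucagon B (adjusted p up to 0.224, for Prc1).

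**Figure D2:**
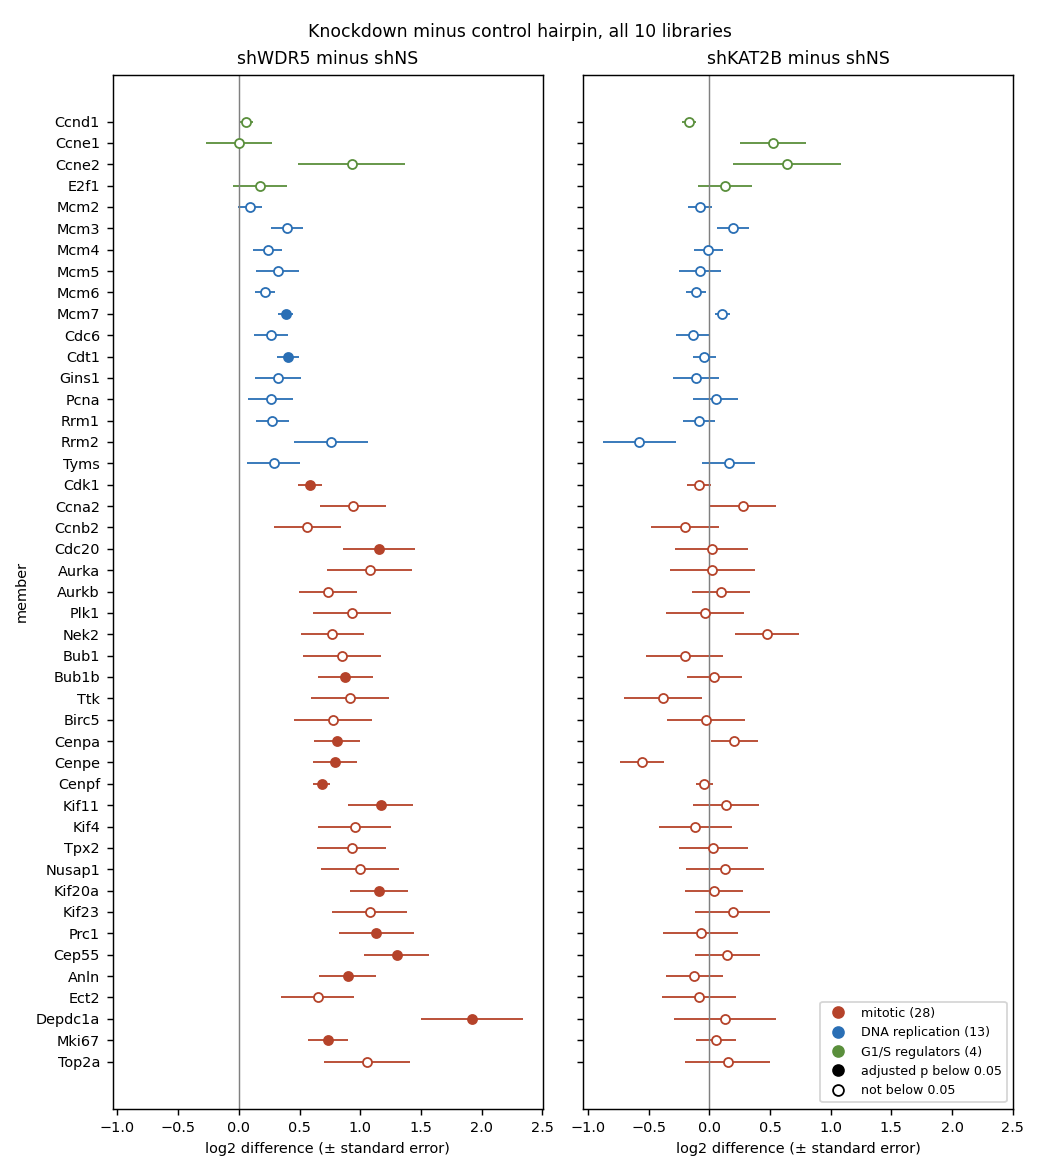
Points give each member's log2 difference (shWDR5 minus shNS on the left, shKAT2B minus shNS on the right) in the additive fit over 10 libraries, with bars of ± 1 standard error and filled points for an adjusted p below 0.05. All 28 mitotic points lie right of 0 on the left, 13 of them filled, and no point is filled on the right.

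Single libraries of the same treatment were also compared. Between the glucagon A libraries 45 of 45 members were higher in shWDR5, with a median of 0.75, and between the glucagon B libraries 41 of 45 were, with a median of 0.63. All 28 mitotic members were higher in both pairs. Against shNS PBS A, shWDR5 PBS A had 45 of 45 members higher, with a median of 1.12, and shKAT2B PBS A had 38 of 45 higher, with a median of 0.50. Both lone PBS A libraries lie with the B libraries in the second set, while shNS PBS A lies in the first, so these 2 pairs cross the sets. Against shNS PBS B, which is of the other letter but of the same set, shWDR5 PBS A had 43 of 45 members higher, with a median of 0.52, and shKAT2B PBS A had 18 of 45 higher, with a median of -0.05. Between the glucagon libraries shKAT2B was higher than shNS in 6 of 45 members for A and in 20 of 45 for B, with medians of -0.19 and -0.02. Over all genes tested the median of each of these pairs lay between -0.06 and 0.02. Each pair is 1 library against 1, so the pairs carry no test.

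**Figure D3:**
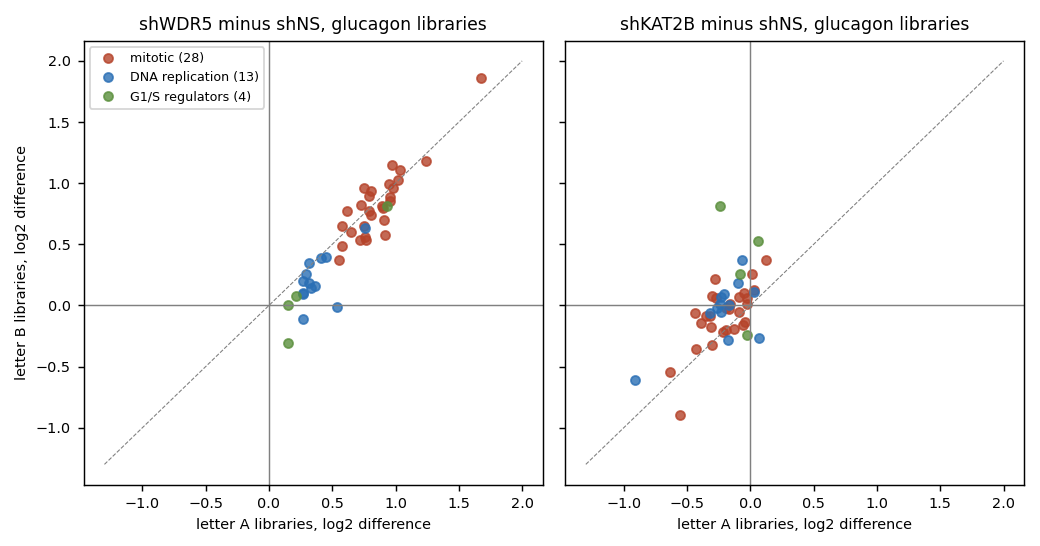
Each point is a member, placed by its log2 difference between glucagon libraries of letter A (horizontal) and of letter B (vertical), for shWDR5 minus shNS on the left and shKAT2B minus shNS on the right. The dashed line marks equal differences. On the left all 28 mitotic points lie above 0 on both axes, and on the right the points scatter around and below 0.

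Most members were higher in the libraries of letter B than in those of letter A. In the 8 libraries of the 4 groups with both letters, 38 of 45 members were higher in B and 0 lower, against 15.7 percent of all genes tested called higher and 35.5 percent called lower. Over all genes tested that split was 1797 higher and 4079 lower, and it became 2839 and 2555 with median-centred libraries and 2405 and 2852 after quantile normalization. The 38 were 27 of 28 mitotic, 8 of 13 replication and 3 of 4 G1/S members, with medians of 0.74, 0.29 and 0.58, beside -0.07 over all genes tested. The range ran up to 1.12 ± 0.07 for Depdc1a (adjusted p = 1.05e-06), with Ccne2 at 1.03 ± 0.15 and Aurka, a centrosome kinase, at 0.93 ± 0.05. Not called were Cenpf (-0.06 ± 0.07), Ccnd1 (-0.06 ± 0.04), Mcm2 (0.06 ± 0.08), Mcm3 (0.21 ± 0.09), Mcm6 (0.11 ± 0.06), Mcm7 (0.09 ± 0.05) and Cdt1 (0.10 ± 0.07). Mcm7, Cdt1 and Cenpf are thus members that were called in shWDR5 and not between the letters.

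The lone PBS libraries carry the letter A but stood with B. Of the 45 members, 38 in shWDR5 PBS A and 42 in shKAT2B PBS A were nearer to the glucagon B library of their hairpin than to its glucagon A library. The matching share over all genes tested was not computed. Over those genes the adjusted lone libraries also correlated more closely with glucagon B, as given above, so this placement is not particular to the members. The mitotic members had a median of 0.88 in shWDR5 glucagon B and 0.79 in shWDR5 PBS A, relative to their own means, and of 0.22 in shWDR5 glucagon A. In shKAT2B it was -0.02 in glucagon B, -0.01 in PBS A and -0.85 in glucagon A. In shNS it was 0.01 in glucagon B, 0.11 in PBS B, -0.63 in glucagon A and -0.63 in PBS A. Within each set, shWDR5 was the highest hairpin for the mitotic median.

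**Figure D4:**
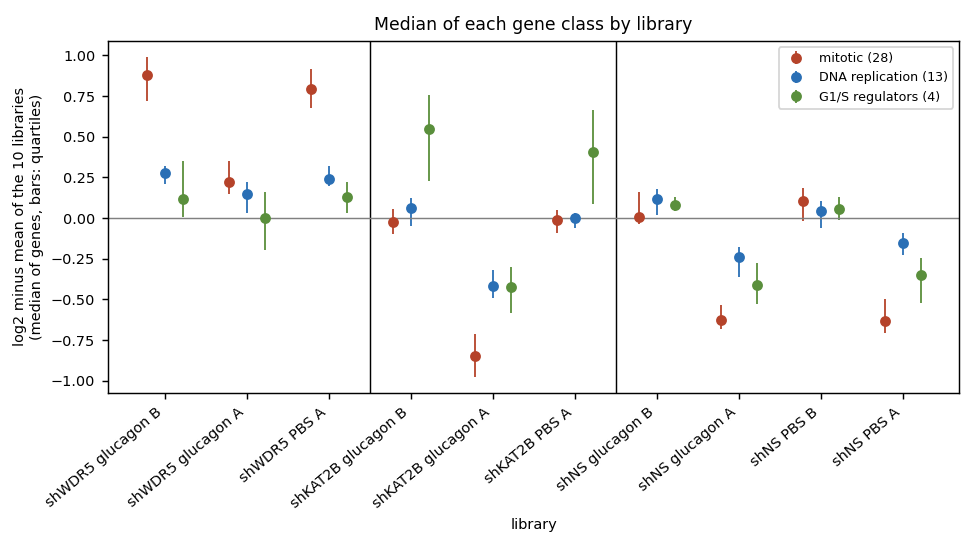
For each library (shWDR5, shKAT2B and shNS from left to right) points give the median over the mitotic, replication and G1/S members of log2(intensity + 1) minus the member's mean over the 10 libraries, with bars from the lower to the upper quartile. The mitotic medians run from -0.85 in shKAT2B glucagon A to 0.88 in shWDR5 glucagon B, and the replication medians from -0.42 to 0.28 in the same libraries.

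Members of a class varied together across libraries. Each mitotic member was correlated over the 10 libraries with the median of the mitotic members other than itself. These correlations had a median of 0.98 (lowest 0.71, Cenpf), and 24 of 28 exceeded 0.9. For the replication members the median was 0.86 and 4 of 13 exceeded 0.9, and for the G1/S regulators it was 0.49, with Ccnd1 at 0.24 and 0 of 4 above 0.9. Over all genes tested, each set against the median of all 28 mitotic members, the median was -0.17 and 1.93 percent exceeded 0.9. These correlations share libraries, letters and hairpins and are a description.

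Markers of other liver cells differed between the letters, while Kupffer, leukocyte and endothelial markers were not called between shWDR5 and shNS in the additive fit. All 14 tested markers of Kupffer cells and leukocytes were higher in B (median difference 0.52), as were 10 of 14 endothelial markers (0.43), while 8 of 10 stellate cell and fibroblast markers were lower (-0.38). Over all genes tested 15.7 percent were called higher in B and 35.5 percent lower. Between shWDR5 and shNS the Kupffer and leukocyte median was 0.26 and the endothelial one 0.25. In each, 0 of 14 were called, beside 4.69 percent of all genes tested called higher and 6.17 percent called lower. In each, 1 of 14 had an unadjusted p below 0.05 (limma), as had 2956 of the 11480 genes tested. With the library set as a term 6 and 2 were called higher (18.8 percent of all genes tested). The summed intensity of the 16 Kupffer and leukocyte markers was 10324 to 14369 in shWDR5, 9513 to 17020 in shKAT2B and 8155 to 13284 in shNS. Of 6 cholangiocyte markers 4 were measured and 3 tested, and all 3 were lower in B (median -0.38). In shWDR5 2 of the 3 fell (6.17 percent of all genes tested called lower) and in shKAT2B 1 did (8.95 percent). The medians against shNS were -0.46 and -0.33, over only 3 genes. The summed intensity of the 4 was 2464, 3883 and 2851 in shWDR5 glucagon B, glucagon A and PBS A, 2729, 4455 and 3420 in the same libraries of shKAT2B, and 3446, 4536, 3995 and 4893 in shNS glucagon B, glucagon A, PBS B and PBS A. It was lower in shWDR5 than in shNS between glucagon libraries of 1 letter, and lower in B than in A in each of the 4 groups with both. Summed hepatocyte markers, with 13 of 15 measured, were 55780 to 63052 in shWDR5, 56492 to 59355 in shKAT2B and 62380 to 69532 in shNS. Of those 13 markers 11 passed the filter on low values, and Alb, the albumin gene, averaged 13.64 on the log2 scale over the libraries. The part of these cells in the members' differences was not tested.

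The members as a whole were not called in shKAT2B. Of the 45, 0 passed in either direction in the additive fit (limma, 2 at an unadjusted p below 0.05), against 6.66 percent of all genes tested called higher and 8.95 percent called lower. The unadjusted p was below 0.05 for 3331 of the 11480 genes tested. The median difference (shKAT2B minus shNS) was 0.02 over the members and 0.01 over all genes tested. With the library set as a term 2 rose and 14 fell (21.5 and 20.1 percent of all genes tested). With the replicate block in the 8 libraries 0 rose and 8 fell (13.5 and 13.7 percent of all genes tested). With the block in all 10 libraries, which sets shKAT2B PBS A beside letter A, 4 rose and 2 fell. These are fewer than the shares over all genes tested, 12.6 and 16.9 percent.

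The members that fell in shKAT2B with the set as a term were led by Rrm2, Ttk, Cenpe and Ccnb2. In shKAT2B values are in the order glucagon B, glucagon A, PBS A. Rrm2 had 10.47, 9.38 and 10.45 in shKAT2B, against 11.08, 10.29, 11.02 and 10.46 in shNS (-0.74 ± 0.09 with the set as a term, adjusted p = 2.85e-05, and -0.58 ± 0.30 without it). Cenpe had 7.81, 7.55 and 8.01 in shKAT2B, against 8.70, 8.11, 8.51 and 8.05 in shNS (-0.64 ± 0.09 with the set, adjusted p = 7.69e-05, and -0.55 ± 0.18 without it). Cenpe did not overlap between these hairpins, and Rrm2 overlapped through the A libraries of shNS. Ttk, the kinase MPS1 of the spindle checkpoint, had 7.55, 6.68 and 7.64 in shKAT2B, against 8.10, 7.32, 8.22 and 7.21 in shNS (-0.56 ± 0.07 with the set, adjusted p = 5.41e-05, and -0.38 ± 0.32 without it). Ccnd1 had 11.32, 11.49 and 11.34 in shKAT2B, below all shNS values, and fell by 0.15 with the set as a term (adjusted p = 0.0145). Lower without overlap were 2 of the 45 members, Cenpe and Ccnd1, beside 1528 of the 11480 genes tested. Higher without overlap were 0 members, beside 1520 genes.

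Ccne1 and Nek2 rose in shKAT2B with the set as a term. Ccne1, an E-type cyclin, had 11.04, 9.92 and 11.05 in shKAT2B, against 10.51, 9.86, 10.39 and 9.95 in shNS (0.39 ± 0.13 with the set as a term, adjusted p = 0.0259, and 0.52 ± 0.27 without it). Ccne2 had 10.41, 8.58 and 10.21 in shKAT2B, against 9.60, 8.82, 9.42 and 8.58 in shNS (0.42 ± 0.19 with the set, adjusted p = 0.0931). Both cyclins were high in shKAT2B glucagon B and PBS A and within the shNS range in shKAT2B glucagon A. Nek2, a kinase of centrosome separation, differed by 0.34 ± 0.09 with the set as a term (adjusted p = 0.0093). The rise of Ccne1 and Nek2 was not called in the replicate block over the 8 libraries.

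Set against each other directly, shWDR5 exceeded shKAT2B in 19 of 45 members and was lower in 0, against 11.5 percent of all genes tested called higher and 11.2 percent called lower. The 19 were 14 mitotic members, the replication members Mcm6, Mcm7, Cdt1 and Rrm2, and Ccnd1. In 30 members all shWDR5 libraries lay above all shKAT2B libraries, as did 17.5 percent of all genes tested. The difference (shWDR5 minus shKAT2B) was 1.35 ± 0.19 for Cenpe (adjusted p = 0.00144), 1.33 ± 0.32 for Rrm2 (adjusted p = 0.0169) and 1.30 ± 0.34 for Ttk (adjusted p = 0.025). It was 0.72 ± 0.08 for Cenpf (adjusted p = 0.000391) and 0.67 ± 0.10 for Cdk1 (adjusted p = 0.00219). With the library set as a term 39 rose and Ccne1 fell by 0.53 (24.6 percent of all genes tested called higher and 25.9 percent lower), and with the replicate block in the 8 libraries 40 rose (18.7 percent). Leaving out 1 library made the count 4 where it was shWDR5 PBS A, 5 where it was shWDR5 glucagon B, 8 where it was shKAT2B PBS A and 9 (8 higher, 1 lower) where it was shKAT2B glucagon A, with 6.47 to 11.7 percent of all genes tested called higher in those 4 fits, and Cdt1, Cdk1, Cenpe and Cenpf held whichever library was left out. This comparison and those with shNS share libraries.

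No member was called for the 90 min glucagon treatment. Of the 45, 0 passed in the additive fit (limma, 0 at an unadjusted p below 0.05), against 0.923 percent of all genes tested called in either direction. The unadjusted p was below 0.05 for 549 of the 11480 genes tested. The median difference (glucagon minus PBS) was -0.17, with 41 of 45 below 0, and the largest was Depdc1a at -0.29 ± 0.36. With the library set as a term the median was 0.00, and with the replicate block in the 8 libraries it was -0.03. Between shNS libraries of 1 letter, glucagon minus PBS had a median of -0.03 for A and -0.02 for B.

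Whether glucagon acted differently on the members under either knockdown was tested as an interaction in a fit of the 6 groups, with the 2 groups of 1 library assumed to vary like the others. In both interactions 0 of 45 members were called (limma, 0 at an unadjusted p below 0.05), against 0 percent of all genes tested. The unadjusted p was below 0.05 for 20 of the 11480 genes tested with shWDR5 and for 36 with shKAT2B. With the replicate block 19 members had a lower glucagon response in shWDR5 than in shNS (2.13 percent of all genes tested) and 31 had a lower one in shKAT2B than in shNS (4.15 percent). That block sets the lone PBS A libraries beside letter A. With the library set as a term, which places them with B, 0 members were called in either interaction.

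The wider cell cycle machinery was read in lists of genes that are not members, and kinetochore, condensin and spindle genes had the highest median of them in shWDR5. The counts of these lists stand beside 4.69 percent of all genes tested called higher and 6.17 percent called lower in shWDR5, and 6.66 and 8.95 percent in shKAT2B. Of 39 tested kinetochore, condensin and spindle genes 19 rose and 0 fell in shWDR5, with a median of 0.64, beside -0.01 over all genes tested. Kif2c, a microtubule-depolymerizing kinesin, rose by 1.06 ± 0.27, Nuf2, a subunit of the NDC80 complex, by 1.01 ± 0.22 and Cdca8, or borealin, by 0.96 ± 0.25. Of 31 other replication factors 4 rose and 0 fell, with a median of 0.11. The 4 include Dbf4, the activator of the CDC7 kinase (0.52 ± 0.13), Rpa2 of replication protein A (0.42 ± 0.08) and Pold1, the catalytic subunit of polymerase delta (0.38 ± 0.10). In shKAT2B 1 of the 39 rose and 1 fell, and of the 31 0 rose and 3 fell.

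Upstream regulators moved both ways. Of 15 E2F, MYB-MuvB and FOXM1 factors 4 rose and 0 fell in shWDR5 (4.69 and 6.17 percent of all genes tested), among them E2f5, a repressor E2F (0.71 ± 0.06), Lin9, a MuvB subunit (0.40 ± 0.07) and Tfdp1, a dimer partner of E2F (0.32 ± 0.07). Foxm1 had a difference of 0.82 ± 0.30 (adjusted p = 0.119) and Mybl2, or B-MYB, one of 0.70 ± 0.23 (adjusted p = 0.0874), and neither was called. In shKAT2B 0 of the 15 rose and 2 fell (6.66 and 8.95 percent of all genes tested). They were E2f4, also a repressor E2F, which fell by 0.56 (adjusted p = 0.00189) and differed by -0.08 in shWDR5 without a call, and E2f5, which fell by 0.37 (adjusted p = 0.00356). Of 15 other CDKs, cyclins and phosphatases 4 rose and 1 fell in shWDR5, with Cdc25a, a phosphatase that activates CDKs, at 0.70 ± 0.08 and Cks2, a CDK subunit, at 0.52 ± 0.12. Cks2 is on 3 probe sets and Tfdp1 on 2, and each value is that of the probe set with the highest mean alone. Cdk6, the kinase partner of D-type cyclins, fell by 1.06 in shWDR5 (adjusted p = 0.00685) and by 0.81 in shKAT2B (adjusted p = 0.0123). In shKAT2B 1 of these 15 rose (Ccnd3, a D-type cyclin, by 0.43 ± 0.12) and 3 fell, the other two being Cdk2, the kinase partner of E-type cyclins (fell by 0.35, adjusted p = 0.0293), and Wee1. Wee1, the kinase that holds CDK1 inactive, rose by 0.50 ± 0.09 in shWDR5 (adjusted p = 0.0088) and fell by 0.45 in shKAT2B (adjusted p = 0.00803).

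Of 7 tested CDK inhibitors and pocket proteins 2 rose and 1 fell in shWDR5, beside 4.69 and 6.17 percent of all genes tested. Cdkn1b, or p27, an inhibitor of cyclin-CDK complexes, rose by 0.35 ± 0.06 and Rb1, the retinoblastoma protein, by 0.29 ± 0.08, while Rbl2, or p130, fell by 0.40. In shKAT2B 3 of the 7 rose and 0 fell, beside 6.66 and 8.95 percent of all genes tested. Cdkn2b, or p15, an inhibitor of CDK4 and CDK6, rose by 0.57 ± 0.13 there (adjusted p = 0.0173), Rb1 by 0.48 ± 0.08 and Cdkn1b by 0.21 ± 0.06. Cdkn2b differed by -0.03 ± 0.13 in shWDR5 and was not called. Cdkn1b is on 2 probe sets, and its values are those of the probe set with the higher mean alone. Cdkn1a is not analysed here. Of the 15 genes of these lists with the widest called differences in shWDR5, up to 3 a list, the calls of E2f5, Cdk6 and Cdc25a held whichever library was left out, and the calls of the other 12 ended without at least 1 library. In shKAT2B the calls of E2f4, E2f5, Wee1 and Rb1 held whichever library was left out, while those of Cdkn1b, Cdkn2b, Cdk2, Cdk6 and Ccnd3 ended without at least 1.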

How the data were processed

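RNA of primary mouse hepatocytes was measured on arrays in 10 libraries. The authors deposited a table of 26913 probe sets whose values are intensity on a linear scale, from 4.47 to 22693.6. Per the submitters' processing notes the software was Affymetrix Expression Console 1.1.1, with the normalization not given in the sources used here. Arrays give no sequencing depth, and precision is limited by how many libraries there are. Of the probe sets 17873 carried 1 gene symbol, 1128 several and 7912 none in the array annotation, and no 2 libraries were identical.

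Values were taken as log2(intensity + 1), with the probe set of highest mean for each of 16401 genes, and genes in the lowest 30 percent of mean level were dropped. Fits used limma 3.58.1 in R 4.3.3 (lmFit and eBayes with a trend), with two-sided tests, Benjamini-Hochberg adjustment over the 11480 genes tested and a threshold of 0.05. Models were hairpin plus treatment (10 libraries), the 6 groups (interactions), and group plus letter (the 8 libraries of groups with both letters). The fit was tested on simulated data with noise drawn independently for each gene and library. The arrays hold a residual component shared across genes, so that test does not show how the fit behaves with it. Summaries were made in Python 3.11.15 with numpy 2.4.6, pandas 2.3.3 and, for figures, matplotlib 3.10.9.

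The letters are the labels' replicate names. The differences B minus A of the 4 groups with both letters correlated at 0.721 to 0.844 over 11480 genes in every pair of groups, so the letters were taken to pair these libraries, and values with the replicate block are given where they change a count. Library sets come from the sign of the first residual component. Other settings tried were no filter, a 50 percent filter, quantile normalization, median-centred libraries, a pseudocount of 16, the mean of a gene's probe sets, no trend, subsets of the libraries and the removal of 1 library at a time. The block on the 8 libraries was added after the data were seen.

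The members, gene lists and settings were chosen with earlier results of these data known. Values in every library are given for the members called in shWDR5, the member with the highest mean of each role group, and Ccnd1, E2f1, Mki67, Cdk1, Pcna and Mcm2. Those given for Ccne1, Ccne2 and, in shKAT2B, for Rrm2, Cenpe, Ttk, Ccne1 and Ccne2, and the single differences of other members, were chosen after their values were seen, as were the genes of the lists named for shKAT2B. Of genes that are not members, Wdr5, Kat2b, Foxm1, Mybl2 and up to 3 called genes of each list with the largest difference in shWDR5 are named. Promoters are those of the first start listed per gene in RefSeq, 27025 in all.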

Additional observations from a re-analysis of the deposited data

How the results depend on the processing

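The count of 15 members called for shWDR5 against shNS was 40 with the replicate block (26.7 percent of all genes tested were called in either direction), 35 with the block in the 8 libraries of groups with both letters (23.7 percent), 37 with the library set as a term (36.8 percent), 36 in the second set alone (35 higher, 1 lower; 27.9 percent) and 0 in the glucagon libraries alone (0.00871 percent). It ran from 2 to 22 when 1 library was left out. The count of 0 for shKAT2B against shNS was 1 with median-centred libraries (18.1 percent), 6 with the replicate block (29.6 percent), 8 with that block in the 8 libraries (27.2 percent), 16 with the set as a term (41.5 percent) and 18 in the second set alone (5 higher, 13 lower; 37.1 percent). It ran from 0 to 5 when 1 library was left out, with 5 without shKAT2B glucagon A (18.5 percent). As shares of the 45 members the 6, 8, 16 and 18 are 13.3, 17.8, 35.6 and 40 percent. The count of 19 for shWDR5 against shKAT2B was 36 with the block (36.1 percent), 40 with it in the 8 libraries (39.3 percent), 40 with the set (50.4 percent), 37 in the second set alone (45.2 percent) and 2 in the glucagon libraries alone (2.61 percent), and ran from 4 to 23 when 1 library was left out. Glucagon against PBS had 1 call in the second set alone (2.69 percent), and the interactions had 19 (shWDR5, 4.75 percent) and 31 (shKAT2B, 12.0 percent) calls with the replicate block. The replicate block changed no other call count by more than 1.5 times. The cause of these changes was not tested. The count of 38 between letters stayed within 1.5 times under each setting run, and no named difference turned its sign past the threshold. Without its lone PBS library an arm rests on glucagon libraries.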
